A study of Mus musculus with 8 samples.

Results

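Icos and Foxp3 are 2 genes of T cells measured here in mouse ear skin. They were taken from the authors' deposited table by gene symbol, and each had 1 probe set, 2 of the 33793 probe sets on the arrays. Only the 3022 genes named in that table have a name here, because it alone pairs probe sets with symbols. The study profiled 4 KO mice, of genotype KRT14-CreERT2(tg/0)/Cdsnfl/fl, and 4 WT mice, of genotype KRT14-CreERT2(tg/0)/Cdsnwt/wt. Cdsn encodes corneodesmosin, an adhesion protein of the junctions between the outermost skin cells. All 8 mice, on a background labelled C57B/6J, carried the tamoxifen-inducible Cre recombinase under a KRT14 promoter. All had 4-hydroxytamoxifen put on both ears from an age of 7 to 12 weeks, at 100 µg per ear and day for up to 15 days, so the recombinase and the drug were common to both groups. That promoter acts in basal keratinocytes, not in lymphocytes. Each array came from 1 mouse.

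ICOS, the inducible costimulator, is a surface receptor of the CD28 family that appears on T cells after their antigen receptor is engaged. It binds ICOS ligand on antigen-presenting cells, and regulatory T cells and group 2 innate lymphoid cells also carry it. FOXP3 is the forkhead transcription factor that defines regulatory T cells, the subset that restrains immune responses, and mouse skin holds a resident population of them. Both genes are known mainly from lymphocytes. Whether a higher value reflects more such cells or more transcript per cell cannot be told apart in whole-tissue RNA.

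Values are log2 probe set values, on which a difference of 1 unit is a doubling. The genotypes did not overlap on the main axis of variation. Even so, KO replicates 3 and 4 lay nearer to WT replicate 1 than to KO replicates 1 and 2. On the first principal component, which held 50.4% of the variance, KO replicates 1 and 2 lay at -75.3 and -57.8, KO replicates 3 and 4 at -4.47 and -6.84, WT replicate 1 at 2.60, and the other WT arrays between 43.5 and 50.5. Cdsn itself, the targeted gene, read 8.89 to 10.31 in KO and 11.76 to 12.13 in WT. Keratinocyte genes named in the table were at high values in all arrays, for example the suprabasal keratin gene Krt1 at 12.63 to 13.56 in KO and 10.30 to 12.56 in WT, while Krt5 and Krt14 are not named there.

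Icos was higher in KO ear skin, and its groups did not overlap. Its probe set of 23 probes read 7.19, 7.38, 6.03 and 6.86 in KO replicates 1 to 4, against 5.92, 5.21, 5.15 and 5.47 in WT replicates 1 to 4. KO replicate 3 was the lowest KO array and WT replicate 1 the highest WT array, and these 2 lay 0.11 log2 units apart. The KO mean was 6.87 ± 0.60 and the WT mean 5.44 ± 0.35 (SD over 4 arrays each). KO was thus higher by 1.43 log2 units (SE 0.29), or 2.69-fold. All KO arrays lay above all WT arrays for 15.9% of all probe sets.

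Foxp3 was also higher in KO on average, by less, and its groups overlapped. Its probe set of 19 probes read 6.83, 7.07, 5.72 and 6.12 in KO replicates 1 to 4, against 5.79, 4.82, 5.49 and 4.98 in WT replicates 1 to 4. KO replicate 3 therefore fell 0.07 log2 units short of WT replicate 1, while 15 of the 16 pairings of a KO with a WT array had the KO array higher. The KO mean was 6.44 ± 0.62 and the WT mean 5.27 ± 0.45 (SD over 4 arrays each), so KO was higher by 1.17 log2 units (SE 0.32), or 2.25-fold.

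**Figure D1:**
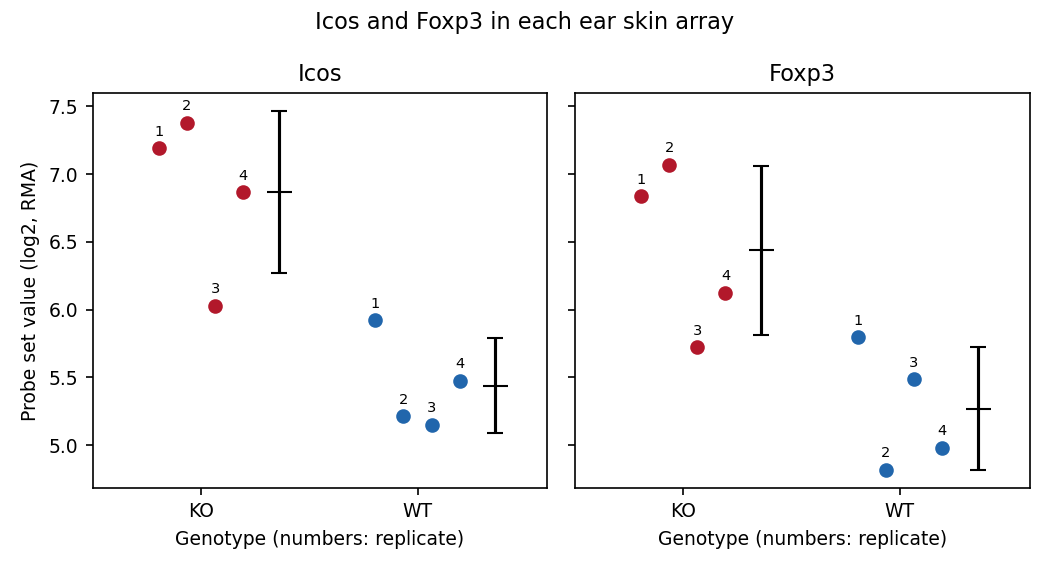
Log2 probe set values of Icos (left) and Foxp3 (right) in each KO and WT array, with the replicate number above each point and the group mean ± SD (n = 4) as a bar to the right of the points. KO replicate 3, at 6.03 for Icos and 5.72 for Foxp3, lies beside WT replicate 1, at 5.92 and 5.79, while KO replicates 1 and 2 are the highest arrays for both genes.

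These differences chose the genes and are given as a description. The genes were chosen by these values, since the authors' deposited table lists only probe sets that passed its limits for KO against WT: an adjusted p below 0.05, with a KO to WT change of 0.5 log2 units or more in one direction or the other. In the authors' deposited table Icos has an adjusted p of 0.0162 and ranks 1569 of 3411 by it, and Foxp3 has 0.0432 and ranks 3219. Foxp3 is thus near the limit: the last entry inside has an adjusted p of 0.049997, and the nearest probe set outside, by the same calculation over all probe sets, has 0.050018. Ranked over all probe sets from the largest rise down, the Icos difference was the 257th and the Foxp3 difference the 489th. The median difference over all probe sets was 0.094 log2 units, so relative to it the differences were 1.33 for Icos and 1.07 for Foxp3.

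Both probe sets were of cross-hybridisation class 1 in the authors' deposited table, which marks probes without matches to other transcripts. Icos lies on chromosome 1 and Foxp3 on chromosome X, so neither is on chromosome 17 with Cdsn. In RefSeq (GRCm38.p6) Icos is flanked by Ctla4 and then Cd28, genes for its inhibitory and costimulatory relatives, on one side and by Pard3b on the other. Foxp3 is flanked by Ppp1r3f and Ccdc22. None of these 5 neighbours is in the authors' deposited table. The mean of Icos over the 8 arrays lay at percentile 58.9 of all probe sets and that of Foxp3 at percentile 55.2, and no detection call was used.

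With single arrays left out, the difference of each gene shifted but kept its sign. Because the KO minus WT values chose both genes, the kept sign is a description and no test. With KO replicate 2 left out, the difference was at its smallest, 1.26 for Icos and 0.96 for Foxp3. With KO replicate 3 left out it was at its largest, 1.71 for Icos and 1.41 for Foxp3. Without WT replicate 1, the WT array nearest to KO, it was 1.59 for Icos and 1.34 for Foxp3, and for each gene the difference was positive in each of the 8 fits. The 2 differences lay closer together without WT replicate 3, at 1.33 for Icos and 1.24 for Foxp3. They lay further apart without WT replicate 4, at 1.44 and 1.07. Without KO replicate 4, Icos stayed at 1.43 and Foxp3 was at 1.27.

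**Figure D2:**
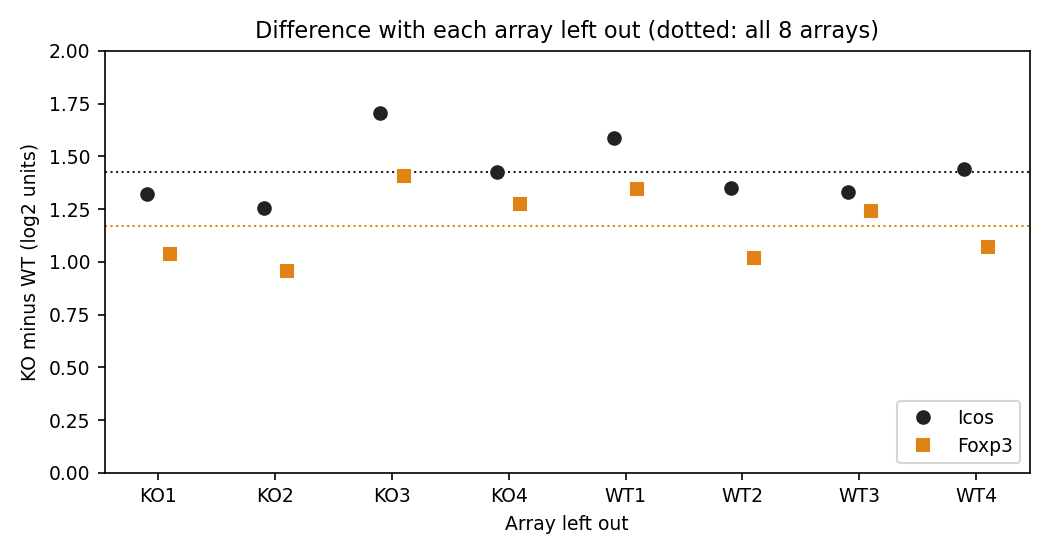
KO minus WT difference in log2 units for Icos (circles) and Foxp3 (squares) with each array left out in turn, and with all 8 arrays (dotted lines, 1.43 and 1.17). The values run from 1.26 to 1.71 for Icos and from 0.96 to 1.41 for Foxp3.

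The 2 genes varied within genotypes more than most probe sets. The within-group SD was 0.49 for Icos and 0.54 for Foxp3, at percentiles 92.9 and 94.7 of all probe sets, whose median was 0.21. In KO the arrays had the same order for both genes, with replicate 2 highest, then 1, 4 and 3. KO replicates 1 and 2 exceeded KO replicates 3 and 4 by 0.84 log2 units on average for Icos and by 1.03 for Foxp3. Within WT, replicate 1 exceeded the mean of the other WT arrays by 0.64 for Icos and 0.70 for Foxp3. Below it the order differed, since WT replicate 3 was lowest for Icos and second highest for Foxp3. Each gene's value lay on the same side of its own group mean as the other's in 4 of 4 KO arrays and 2 of 4 WT arrays.

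The same arrays were high for genes listed for other immune cells. Of all probe sets 10.1% met the table's limits, 7.63% as higher and 2.47% as lower. Here and below, gene lists were chosen with earlier results of these data known, so their counts are no test against these shares. Each sum below holds only the members that were in the table, so its rise in KO was fixed by that choice. Of 13 neutrophil genes, 5 were in the authors' deposited table, all higher in KO, and their summed level (log2 of the sum of linear values) was 12.01 to 13.60 in KO and 7.36 to 11.94 in WT. The 2 highest KO arrays for that sum were replicates 1 and 2, and WT replicate 1 was the highest WT array. Ly6g, a neutrophil surface marker, read 7.91 and 7.93 in KO replicates 1 and 2, 4.72 and 4.62 in KO replicates 3 and 4, and 3.05 to 4.12 in WT. The sum is weighted to genes of high value: in WT replicate 1 the listed gene S100a8 read 11.57 and Ly6g 4.12. The groups overlapped for S100a8, which read 11.31 in KO replicate 3. Which cells made these transcripts was not tested. Of 14 mast cell, basophil and eosinophil genes, 3 were named, all higher in KO, with a sum of 9.66 to 11.18 in KO and 7.92 to 8.79 in WT. Among them the tryptase genes Tpsab1 and Tpsb2 share chromosome 17 with Cdsn. For both, the loss of Cdsn and variants linked to the floxed allele cannot be told apart. The groups overlapped for Tpsb2. The neutrophil count was 2 when KO replicate 2 or any of WT replicates 2 to 4 was left out, and 3 without KO replicate 1. Median centring and quantile normalization each gave 3, fits without moderation gave 1, and 1 was called of the 3 still tested when dim probe sets were removed. The part of these cells in the Icos and Foxp3 values was not tested. Values of the other listed marker genes, not in the table, are unknown here.

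Genes whose pattern over the 8 arrays was closest to Icos were taken from the 3021 other named genes by the root mean square difference after each gene's own mean was subtracted. They were E2f7, a cell cycle transcription factor gene, at 0.18 log2 units, the epithelial transcription factor gene Elf3 at 0.21, the early response gene Ier3 at 0.22, Bcl3, which encodes an atypical inhibitor of NF-kB, at 0.23, and the chromatin protein gene Hmga2 at 0.23. The median over all named genes was 0.59. Foxp3 ranked 14th for Icos, at 0.29. Ier3 lies on chromosome 17 with Cdsn, so for it the loss of Cdsn and linked variants cannot be told apart.

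For Foxp3 the closest genes included Bcl2a1a, of an anti-apoptotic BCL2 subfamily, at 0.13 log2 units, the serotonin receptor gene Htr1b at 0.18, the predicted gene Gm19510 at 0.19 and Nkpd1 at 0.20, against a median of 0.55. Bcl2a1a was of cross-hybridisation class 3, so its probes also match other transcripts. Icos ranked 36th for Foxp3. All genes compared had been selected for a difference between KO and WT, so part of the likeness is the difference shared by choice.

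**Figure D3:**
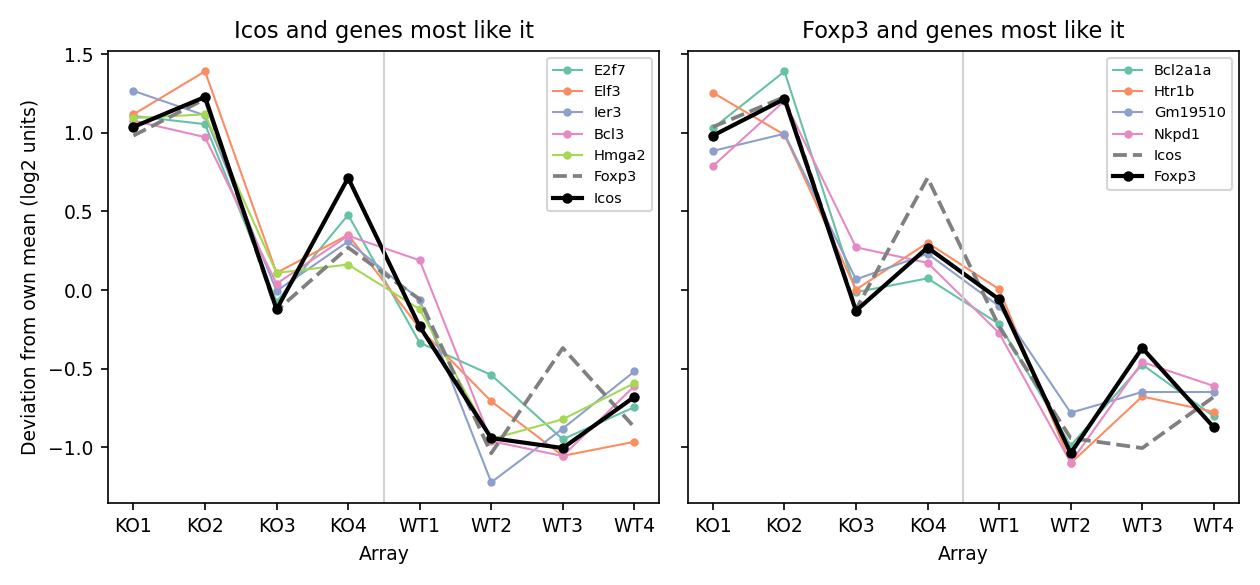
Deviation of each gene's log2 value from its own mean over the 8 arrays, for Icos (left, black) and Foxp3 (right, black), genes most like each (coloured, 5 for Icos and 4 for Foxp3) and the other of the 2 genes (dashed grey). Lines join arrays only to guide the eye: values peak in KO replicates 1 and 2, and KO replicate 3 lies at -0.12 for Icos and -0.13 for Foxp3, near WT replicate 1 at -0.23 and -0.06.

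Several genes of regulatory T cells were, like Foxp3, higher in KO. Of 23 listed genes other than Foxp3, 5 rose and 1 fell in KO ear skin by limma within the table's limits, and 17 were not in the authors' deposited table. Among all probe sets the shares were 7.63% higher and 2.47% lower. The risers were the amphiregulin gene Areg (2.23, SE 0.48), the IL-33 receptor gene Il1rl1 (1.67, SE 0.41), the IL-2 receptor alpha chain gene Il2ra (0.97, SE 0.23), the chemokine receptor gene Ccr8 (0.95, SE 0.19) and the anti-inflammatory cytokine gene Il10 (0.87, SE 0.23), all log2 differences with limma adjusted p between 0.0139 and 0.0372. The G protein-coupled receptor gene Gpr83 fell by 0.64 on the log2 scale (SE 0.11, limma adjusted p = 0.0103). Areg is also made by keratinocytes, and Il1rl1 is also carried by mast cells and group 2 innate lymphoid cells. In likeness to the Foxp3 pattern among 3021 genes, Il2ra ranked 65, Il10 182, Ccr8 238, Il1rl1 300 and Areg 2176. Ctla4, Ikzf2 and Tnfrsf18, further genes of regulatory T cells, were not in the table.

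Il2ra, the high-affinity IL-2 receptor chain that marks regulatory and activated T cells, read 6.89, 7.21, 6.15 and 6.44 in KO replicates 1 to 4, against 6.00, 5.85, 5.42 and 5.55 in WT replicates 1 to 4. Its KO arrays had the order of Icos and Foxp3, and its groups did not overlap. Ccr8, a chemokine receptor of regulatory and skin-resident T cells, read 5.56, 5.41, 4.85 and 4.91 in KO, against 4.11, 4.45, 4.36 and 4.01 in WT. In this gene WT replicate 1 was not raised: it lay 0.16 below the mean of the other WT arrays. The mean of Ccr8 lay at percentile 36.4 of all probe sets, that of Il10 at 27.9 and that of Gpr83 at 28.1.

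Of the 6 regulatory T cell genes, 2 stayed called when KO replicate 2 was left out, and likewise for WT replicate 2 and for WT replicate 3. The count was 3 without KO replicate 1 or WT replicate 4, and leaving out WT replicate 1 gave 6. Fits without moderation gave 2. Leaving out dim probe sets kept 3 of these genes in the fit and called 1 of them. Ccr8 and Gpr83 kept an adjusted p under 0.05 whichever array was left out. Areg lost its call in 3 of the 8 such fits, Il2ra and Il1rl1 in 5 and Il10 in 6, with limma adjusted p of at most 0.0954.

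Sequence upstream of Foxp3, Il2ra and Ccr8 is shown because all 3 transcripts were higher in KO. Each window runs from 250 bases before to 50 bases after a RefSeq transcript start, on the + strand of GRCm38.p6, and Foxp3 has 2 starts. Letters searched on both strands were GGAAA, the core bound by NFAT factors of T cell activation, TGANTCA, the AP-1 site, TTCNNNGAA, the site of STAT factors that act below the IL-2 receptor, and TGTGGT, the RUNX core. Capitals mark every match.
Foxp3 start 1, chrX:7579426-7579725: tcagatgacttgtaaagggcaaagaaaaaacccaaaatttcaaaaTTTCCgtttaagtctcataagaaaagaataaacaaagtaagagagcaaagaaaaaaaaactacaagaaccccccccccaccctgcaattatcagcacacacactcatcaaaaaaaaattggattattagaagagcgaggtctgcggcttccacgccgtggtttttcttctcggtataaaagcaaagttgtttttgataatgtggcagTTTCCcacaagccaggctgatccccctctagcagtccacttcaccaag
Foxp3 start 2, chrX:7580233-7580532: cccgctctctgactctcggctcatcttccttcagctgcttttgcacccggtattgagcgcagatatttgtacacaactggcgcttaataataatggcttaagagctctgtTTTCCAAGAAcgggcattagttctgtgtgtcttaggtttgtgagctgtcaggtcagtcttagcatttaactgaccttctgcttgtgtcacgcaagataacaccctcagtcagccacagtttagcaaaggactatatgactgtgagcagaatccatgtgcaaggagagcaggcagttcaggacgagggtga
Il2ra, chr2:11642542-11642841: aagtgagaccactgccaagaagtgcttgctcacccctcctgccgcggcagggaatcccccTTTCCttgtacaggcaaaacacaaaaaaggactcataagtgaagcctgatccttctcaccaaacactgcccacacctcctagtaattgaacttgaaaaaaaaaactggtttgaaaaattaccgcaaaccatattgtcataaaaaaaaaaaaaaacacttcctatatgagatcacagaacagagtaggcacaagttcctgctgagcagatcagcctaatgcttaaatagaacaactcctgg
Ccr8, chr9:120091883-120092182: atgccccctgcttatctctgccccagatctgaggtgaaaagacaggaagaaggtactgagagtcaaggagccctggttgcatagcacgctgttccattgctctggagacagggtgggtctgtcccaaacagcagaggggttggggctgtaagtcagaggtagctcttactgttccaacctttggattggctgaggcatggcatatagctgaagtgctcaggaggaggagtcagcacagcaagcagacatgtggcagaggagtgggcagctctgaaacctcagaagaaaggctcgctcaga
GGAAA was found 2 times at Foxp3 start 1, 1 time at Foxp3 start 2 and 1 time at Il2ra. TTCNNNGAA was found 1 time, at Foxp3 start 2, where it overlaps the GGAAA match on the other strand. TGANTCA and TGTGGT were in none of the 4 windows, and Ccr8 held no match. Of 32851 windows of the same length in RefSeq, 61.3% hold GGAAA, 8.30% TTCNNNGAA, 7.81% TGANTCA and 16.8% TGTGGT. Matches of this kind are a description of the letters only.

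Of 20 listed genes induced by T cell receptor signalling, 7 rose in KO and 0 fell, against 7.63% and 2.47% of all probe sets. The other 13 were not in the table and have no value here. The 7 were the early activation marker gene Cd69 (log2 difference 1.85, SE 0.31), the nuclear receptor genes Nr4a1 (1.38, SE 0.28) and Nr4a3 (1.37, SE 0.33), the interferon gamma gene Ifng (1.37, SE 0.13), the AP-1 gene Junb (1.32, SE 0.25), the NF-kB feedback gene Tnfaip3 (1.06, SE 0.23) and Egr1 (0.93, SE 0.26). Their limma adjusted p lay between 0.00122 and 0.0469. Keratinocytes and other cells also induce several of these, among them Junb, Egr1 and Nr4a1. Il2, the growth factor gene of this response, was not in the table. The count was 4 without KO replicate 2, 3 without moderation, and 3 of the 5 still tested with dim probe sets left out. Egr1 lost its call in 7 of the 8 fits that leave out an array. Median centring, quantile normalization, removal of dim probe sets and a fit without moderation each ended its call too. Nr4a3 lost its call in 5 of the 8, and also in the fit without moderation and when dim probe sets were removed.

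Cd69, a lectin that holds activated lymphocytes in tissue, read 6.45, 6.75, 5.39 and 5.35 in KO replicates 1 to 4, against 4.40, 3.97, 3.95 and 4.21 in WT replicates 1 to 4. As for Icos, KO replicates 1 and 2 were the higher KO arrays. Ifng, the cytokine of type 1 helper and cytotoxic cells, read 5.05, 4.91, 5.32 and 4.93 in KO, against 3.79, 3.60, 3.84 and 3.50 in WT. Its KO arrays did not follow that order, and its mean lay at percentile 30.4 of all probe sets. Cd69 and Ifng were called with each array left out.

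**Figure D4:**
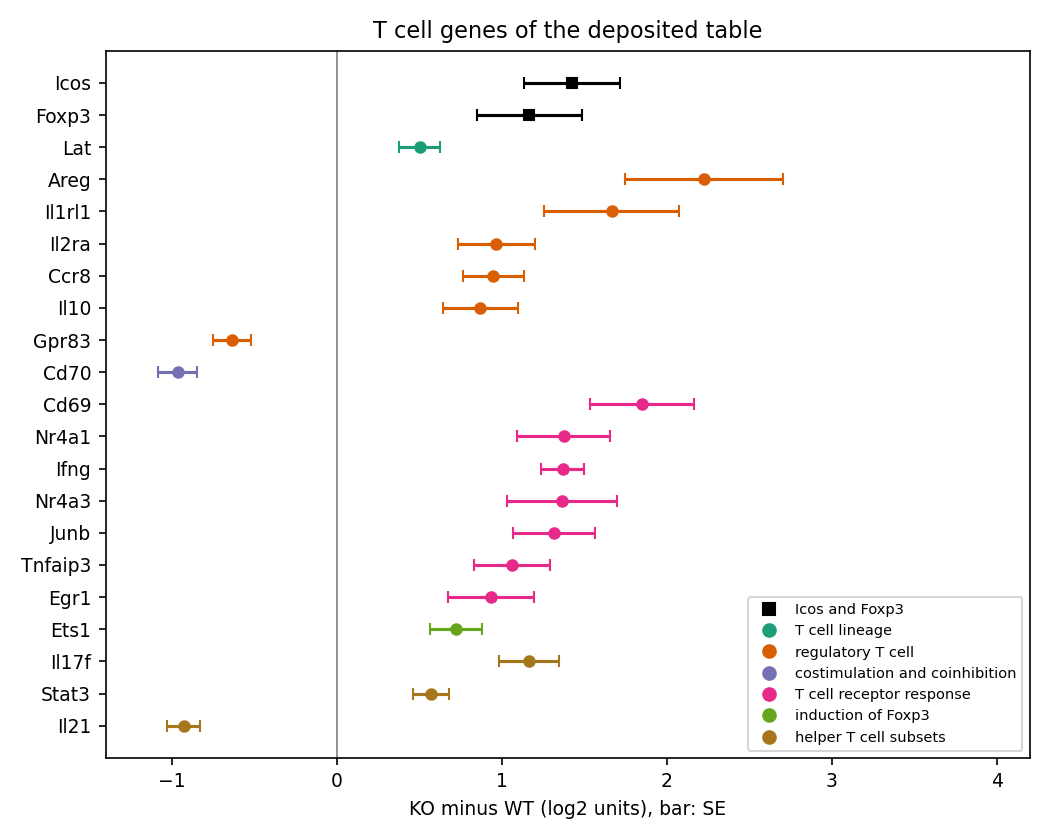
KO minus WT difference in log2 units (bar: SE of the limma fit) for Icos and Foxp3 (squares) and the 19 genes of the 6 T cell lists in the authors' deposited table (circles), each under the first list that holds it. Il2ra is also on the list for induction of Foxp3 and Ifng on the helper subset list. Gpr83, Cd70 and Il21 lie below 0 and the other 16 genes above it, from 0.50 for Lat to 2.23 for Areg.

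Of 20 general T cell genes, which include those of the CD3 chains, CD4 and CD8, 1 was called, where 10.1% of all probe sets met the limits. It was Lat: this adaptor of the T cell receptor was higher by 0.50 log2 units (SE 0.13, limma adjusted p = 0.0324), at 6.40 to 6.95 in KO and 6.08 to 6.22 in WT. Of the fits that leave out an array, that without KO replicate 3 was the only one to call it, and its call also ended with median centring, quantile normalization, removal of dim probe sets and no moderation. Of 9 gamma delta T cell genes 0 were in the table. By name, and chosen after its values were seen, the table also holds 27 T cell receptor gene segments, of which 22 were higher, led by Traj18 at 1.76 log2 units, and 5 lower. Most entries of that table were higher in any case, 2577 of 3411. How many such segments the arrays hold is unknown here. Of the 27, 12 were of cross-hybridisation class 3 and 26 had a mean below the median of all probe sets.

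Of 24 receptors and ligands that costimulate or inhibit T cells, 1 was called, against 10.1% of all probe sets. Those not in the table, among them the ICOS ligand gene Icosl, Cd28, Cd80, Cd86 and Pdcd1, have no value here. Cd70, the ligand of CD27, fell by 0.96 on the log2 scale (SE 0.12, limma adjusted p = 0.00293), reading 2.50 to 2.84 in KO and 3.47 to 3.75 in WT. It is of low level, at percentile 13.3 of all probe sets. It shares chromosome 17 with Cdsn, and for it the loss of Cdsn and variants linked to the floxed allele cannot be told apart.

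Among 6 genes that act on the Icos transcript, 2 rose, where 7.63% of all probe sets did. Zc3h12a encodes Regnase-1, an endonuclease that degrades Icos messenger RNA in mouse T cells, and read 8.68 to 8.90 in KO and 7.29 to 8.13 in WT (log2 difference 0.94, SE 0.18, limma adjusted p = 0.0126). Malt1 encodes the protease that cleaves Regnase-1 after T cell receptor engagement, and read 9.02 to 9.45 in KO and 8.39 to 8.54 in WT (0.72, SE 0.12, limma adjusted p = 0.00731). Both are also expressed outside T cells, and both were called with each array left out. Rc3h1 and Rc3h2, the Roquin genes that repress the same transcript, were not in the table.

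Of 25 genes for the signals that induce Foxp3 (TGF-beta, IL-2, SMAD, STAT5, RUNX and FOXO factors), Il2ra and the transcription factor gene Ets1 rose, Ets1 by 0.72 log2 units (SE 0.16, limma adjusted p = 0.0205). That is 8% of the list, near the 7.63% of all probe sets that were higher. Ets1 lost its call without KO replicate 2 and without WT replicate 2; Il2ra also did, so 0 of the 2 were called in those fits, and 0 without moderation. Leaving out KO replicate 1, or either of WT replicates 3 and 4, gave 1, as did removing dim probe sets. The TGF-beta, SMAD and STAT5 genes of that list were not in the table.

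Of 20 genes that separate helper T cell subsets, 3 rose and 1 fell, against 7.63% and 2.47% of all probe sets. Ifng was given above; the type 17 cytokine gene Il17f rose by 1.17 log2 units (SE 0.18) and Stat3 by 0.57 (SE 0.11), with limma adjusted p of 0.00634 and 0.0135. Stat3 was not called after quantile normalization. The mean of Stat3 lay at percentile 98.7 of all probe sets, and which cells its transcript came from was not tested. Il21, a cytokine gene of follicular and type 17 helper cells, fell by 0.93 on the log2 scale (SE 0.10, limma adjusted p = 0.00191), with KO arrays at 3.36 to 3.54 and WT arrays at 4.28 to 4.55. Its mean lay at percentile 23.5 of all probe sets. The lineage factor genes Tbx21, Gata3 and Bcl6 were not in the table. Across these 6 T cell lists, KO replicates 1 and 2 both exceeded KO replicates 3 and 4 in 12 of the 19 called genes, and WT replicate 1 was the highest WT array in 9. No such count over all called probe sets is given. The first principal component of all probe sets also set KO replicates 1 and 2 apart from KO replicates 3 and 4.

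Genes for signals from other cells that draw or feed T cells were listed as recruitment genes and as cytokines, and the difference between these lists was not tested. Of 25 genes for lymphocyte recruitment 1 was called, against 10.1% of all probe sets: Ccl1, a ligand of CCR8. It fell by 0.70 on the log2 scale (SE 0.14, limma adjusted p = 0.0157), at 4.34 to 4.85 in KO and 5.01 to 5.44 in WT, opposite to its receptor gene Ccr8. Of 13 cytokine genes made by keratinocytes and myeloid cells, 3 rose, where 7.63% of all probe sets did. Il1f6 rose by 2.65 log2 units (SE 0.57), Il24 by 2.62 (SE 0.68) and Il1a by 1.92 (SE 0.44). Their limma adjusted p lay between 0.0193 and 0.0371, and WT replicate 1 exceeded the mean of the other WT arrays by 1.15 to 2.22. For all 3 the groups overlapped, with WT replicate 1 above the lowest KO array. The count of 3 was 0 when KO replicate 2 or any of WT replicates 2 to 4 was left out, 0 without moderation and 1 with dim probe sets left out.

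Of other lymphoid cells, 1 of 14 and 1 of 8 listed genes were called, shares that lie on either side of the 10.1% of all probe sets. Of the 14 genes of group 2 innate lymphoid and natural killer cells, the perforin gene Prf1 was called and fell by 0.74 on the log2 scale (SE 0.17, limma adjusted p = 0.0244), at 5.95 to 6.68 in KO and 6.91 to 7.17 in WT. Of the 8 B cell and plasma cell genes, Cd22 rose by 0.56 (SE 0.15, limma adjusted p = 0.0374). With arrays left out, each kept its call only without KO replicate 3, KO replicate 4 or WT replicate 1. Of 13 macrophage, dendritic and Langerhans cell genes 0 were in the table, of 15 keratinocyte genes 5 were higher, and of 11 fibroblast and endothelial genes 2 were higher. The keratinocyte count was 0 when KO replicate 2, WT replicate 2 or WT replicate 3 was left out, and 0 without moderation. Removing dim probe sets gave 1. The count was 2 without WT replicate 4 and with either median centring or quantile normalization, and 3 without any 1 of KO replicates 1, 3 and 4. The fibroblast and endothelial count was 2 with KO replicate 4 left out and 1 with any other array left out.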

How the data were processed

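RNA of 8 ears from 8 mice was hybridised to Affymetrix Gene Mouse 2.0 ST arrays, per the file headers. The authors deposited log2 values for 33793 probe sets, computed by RMA (per the submitters' processing notes), with version and options not given in the sources used here. A table that the authors deposited for 3411 probe sets holds the log2 change, its linear fold ratio, p-values and gene symbols.

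Values were used as deposited. KO minus WT was fitted over all probe sets with limma 3.58.1 (R 4.3.3), with moderated two-sided tests and Benjamini-Hochberg adjustment; calls are at adjusted p under 0.05. This fit gave the same 3411 entries as the authors' deposited table at its limits. Replicates are separate mice. The number of arrays limits the precision. The fit was tested on simulated data with noise independent between probe sets, so that test does not cover variation that many probe sets share. Of the table's entries, 2660 were matched to RefSeq; a gene with more than 1 probe set was represented by that of highest mean.

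The genes and the 17 gene lists (262 genes) were chosen with earlier results of these data known. Named genes are Icos, Foxp3, Cdsn, up to 4 called members of each list by size of difference, and the 5 genes most like Icos and Foxp3, of which a result is not reported here; Il10, Gpr83, Junb, Tnfaip3 and Egr1, and the gene segments, were named after their values were seen. Averages, fits and figures also used Python 3.11.15, numpy 2.4.6, pandas 2.3.3 and matplotlib 3.10.9.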

Additional observations from a re-analysis of the deposited data

Results flagged for a closer look

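Among 55 named genes, 110 groups of 4 arrays were examined for an array far from the other 3, and 2 were found; chance alone gives about 1 in 20. Alox15, a lipoxygenase gene of eosinophils and macrophages, read 5.99 in KO replicate 3, against 6.49 to 6.53 in the other KO arrays. Stat3 read 10.64 in WT replicate 2, against 10.95 to 10.99 in the other WT arrays. Neither Icos nor Foxp3 had such an array in either group.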

How the results depend on the processing

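The differences of Icos and Foxp3 stayed positive under every alternative run, from 1.26 to 1.71 log2 units for Icos and from 0.96 to 1.41 for Foxp3, which are also their ranges with single arrays left out. Removing dim probe sets, changing the moderation and adding the replicate block leave these differences unchanged by construction. Because such values chose both genes, the kept sign is a description and no test. Quantile normalization gave 1.34 and 1.07, and median centring 1.33 and 1.07. Scaling moved the median difference over all probe sets to -0.021 under quantile normalization, against 0.094 as deposited, and the share of calls that were higher to 49.1% (53.2% after median centring), against 75.7%. Calls over all probe sets numbered 4428 as deposited and 718 of 16897 with dim probe sets left out, and 2161 to 3504 with single arrays left out (KO replicate 2, 2161; WT replicate 2, 2281; WT replicate 3, 2335; KO replicate 1, 2751; WT replicate 4, 2883). Of the 42 listed genes called, 14 were called with dim probe sets left out, which also removes genes from the fit, 16 without moderation, and 18 to 38 with single arrays left out (KO replicate 2, 18; WT replicate 2, 19; WT replicate 3, 20; WT replicate 4, 24; KO replicate 1, 27). Names come from the table alone, so these counts could only fall; the cause of the falls was not tested. With 43 genes, Cdsn included, 0 of 590 single-gene results changed direction and 183 lost their call. Of the 5 genes most like each, 3 were kept for Icos and 4 for Foxp3 with deviations from group means, and 4 and 3 without WT replicate 1. Replicate numbers were not taken to pair the mice, because the labels name genotype as the only factor. The correlations of same-numbered deviations cannot decide whether the mice were paired, and 1 of the 4 was below 0 (0.548, -0.0624, 0.276 and 0.304). KO replicates 1, 3 and 4 each correlated best with the WT array of their own number, a hint from the data and not the design, and KO replicate 2 with WT replicate 1. A fit with the replicate block called 5150 probe sets and 41 of the 42 listed genes, with the differences of Icos and Foxp3 at 1.43 and 1.17.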
